A study of Homo sapiens with 30 samples.

Results

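Of the 37843 genes in the count table of LNCaP cells, 92 carried symbols of the subunits of the 5 oxidative phosphorylation complexes. They were chosen by name alone (NDUF, SDH, UQCR, COX, ATP5 and MT- subunit symbols, with names of pseudogenes dropped), a rule that uses no measured value. Of the 92, 79 lie in the nucleus and 13 in mitochondrial DNA. Complex I held 37 nuclear and 7 mitochondrial members, complex II 4 nuclear members, complex III 8 and 1, complex IV 12 and 3, and complex V 18 and 2. NDUFA4 is counted with complex I here because of its name, although it is known as a subunit of complex IV.

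Complexes I to IV pass electrons from NADH and succinate to oxygen and pump protons across the inner mitochondrial membrane, and complex V, the ATP synthase, uses that gradient to make ATP. Every complex except complex II is built from subunits of both genomes, so nuclear messages translated in the cytosol and mitochondrial messages translated in the matrix must be assembled together. Prostate epithelium is known for its unusual citrate metabolism, and androgens act on prostate cancer cells through the androgen receptor, a nuclear hormone receptor. LNCaP is an androgen-responsive human prostate cancer cell line. All cells first spent 48 h in medium with hormone-depleted serum, and then received R1881, a synthetic androgen, at 0.03, 0.06, 0.1 or 10 nM, or vehicle, for 24 h. There were 3 libraries to each of these 5 groups, and they carry the numbers 2, 3 and 4. The series was designed around the biphasic response of prostate cancer cells to androgen; its 15 VCaP samples were not analysed here.

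The promoters (250 bases before to 50 bases after the start in RefSeq, GRCh38.p14) were searched on both strands for the letters of factors known for respiratory genes and for androgen receptor sites. Of the 79 nuclear members, 65 matched the promoter table, which holds 35116 promoters. Letters of nuclear respiratory factor 1, GCGCATGCGC, stood in 4 of the 65 (6.15%) and in 1.24% of all promoters. Letters of YY1, AAGATGGC, stood in 12 of the 65 (18.5%) and in 2.89% of all promoters. The ETS core CCGGAAG, which GABP binds, stood in 19 of the 65 (29.2%) and in 10.3% of all promoters. The full androgen response element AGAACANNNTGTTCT stood in none of the 65 and in 1 of all 35116 promoters (0.00285%), and its single arm AGAACA, which lies inside the full element, in 8 of the 65 (12.3%) and in 14.8% of all promoters. Such a match is a description of the letters, and no match says only that they are not in this window. Of the 24 matched members that were later found higher at 10 nM, 2 held the nuclear respiratory factor letters, 3 those of YY1, 7 those of ETS factors and 3 the androgen arm; of the 5 found lower, the counts were 1, 2, 0 and 0; of the 34 with no call, 1, 7, 12 and 5.

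The promoters of 3 members named in the results are shown, each with a match to one of the searched letters: NDUFB4, the member with the largest fall, and NDUFA6 and NDUFC1, both among those that rose. Capitals mark the nuclear respiratory factor 1 letters of NDUFB4 (chr3:120596086-120596385, plus strand), the YY1 letters of NDUFA6 (chr22:42090723-42091022, minus strand) and the androgen arm of NDUFC1 (chr4:139302428-139302727, minus strand). Sequences run 5′ to 3′ on the gene's strand and are those of RefSeq on GRCh38.p14.
NDUFB4: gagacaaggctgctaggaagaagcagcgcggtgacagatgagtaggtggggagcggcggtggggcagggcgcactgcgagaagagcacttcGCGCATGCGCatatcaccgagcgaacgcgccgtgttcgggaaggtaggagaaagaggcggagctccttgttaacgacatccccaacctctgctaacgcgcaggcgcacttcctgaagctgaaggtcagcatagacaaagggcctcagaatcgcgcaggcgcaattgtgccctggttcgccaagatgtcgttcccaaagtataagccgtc
NDUFA6: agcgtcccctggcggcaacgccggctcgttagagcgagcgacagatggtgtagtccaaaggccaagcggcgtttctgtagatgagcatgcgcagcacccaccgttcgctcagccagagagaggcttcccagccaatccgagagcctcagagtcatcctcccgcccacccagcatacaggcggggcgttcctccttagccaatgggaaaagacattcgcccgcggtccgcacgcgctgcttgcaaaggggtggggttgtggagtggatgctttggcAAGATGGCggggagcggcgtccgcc
NDUFC1: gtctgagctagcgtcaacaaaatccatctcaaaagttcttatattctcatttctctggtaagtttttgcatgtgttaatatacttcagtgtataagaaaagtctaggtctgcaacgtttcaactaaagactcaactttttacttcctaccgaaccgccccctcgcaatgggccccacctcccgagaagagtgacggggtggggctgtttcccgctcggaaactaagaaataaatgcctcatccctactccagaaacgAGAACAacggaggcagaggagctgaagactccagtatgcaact

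Library totals ran from 30666460 to 61199483 counts. Levels are given as CPM, counts scaled to the effective library size (the library total times its TMM factor), and are therefore shares of a library: fewer cells of a kind and less RNA per cell cannot be told apart. The levels of KLK3 and KLK2, androgen-induced secreted proteases of prostate luminal cells, were called higher at 10 nM, with log2 changes of 5.23 and 6.60 against vehicle. They belong to a list of 13 prostate luminal genes that moved both ways. Of the 13, 6 were called higher and 5 lower at 10 nM, with a median of 0.08. Of all genes 32.1% were called higher and 31% lower. Of the 10 fibroblast markers listed, 8 were in the count table and 4 of these were tested. The 8 summed to 16.5 to 20.3 CPM in the 10 nM libraries and 29.3 to 40.4 CPM in the vehicle libraries. Of the 10 leukocyte and endothelial markers only VWF was tested. The 9 in the count table summed to 5.28 to 8.12 CPM at 10 nM and 16.8 to 20.2 CPM in vehicle. Their part in the results was not tested.

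Most nuclear subunit genes held close to their vehicle level at every dose, and the shifts that were called were small. A gene was called where edgeR's quasi-likelihood test, with the library number as a block, gave a Benjamini-Hochberg adjusted p under 0.05 over all 18403 genes tested. Of the 76 nuclear members tested, 2 were called at 0.03 nM (17.4% of all genes), 8 at 0.06 nM (39.6% of all genes), 10 at 0.1 nM (49.7% of all genes) and 32 at 10 nM (63% of all genes), each against vehicle. The nuclear shares were 2.63%, 10.5%, 13.2% and 42.1%. The 4 comparisons share the vehicle libraries. By direction, 1 was higher (9.93% of all genes) and 1 lower (7.43%) at 0.03 nM, 6 higher (20.7%) and 2 lower (19%) at 0.06 nM, 7 higher (25.1%) and 3 lower (24.6%) at 0.1 nM, and 26 higher (32.1%) and 6 lower (31%) at 10 nM. At 10 nM the libraries did not overlap those of vehicle for 25 of 76 nuclear members (32.9%), 22 above and 3 below, against 62.6% of all genes. The test over all 5 groups called 20 of 76 nuclear members (26.3%), against 68.6% of all genes; among genes with a mean of at least 10 CPM it called 19 of 68 (27.9%), against 83.4%.

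**Figure D1:**
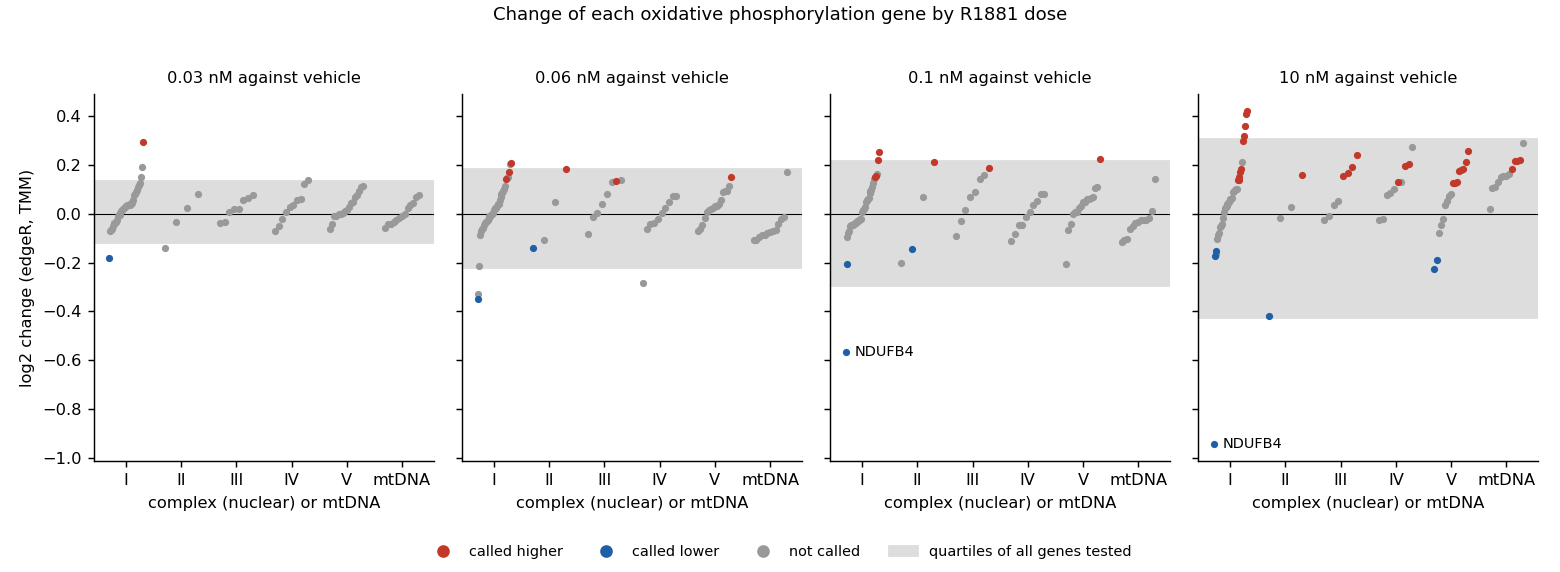
Log2 change of each tested subunit gene at 0.03, 0.06, 0.1 and 10 nM R1881 against vehicle, by complex and genome; red points were called higher, blue lower, grey were not called, and the grey band spans the middle 50% of all genes tested. Nuclear members lie close to 0 at every dose except NDUFB4, which falls step by step to −0.94 at 10 nM, and the 13 mitochondrial members lie above 0 at 10 nM.

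The changes were also small in size. At 10 nM the median absolute log2 change was 0.10 over the nuclear members, 0.15 over the mitochondrial members, 0.36 over all genes tested and 0.27 over genes of at least 10 CPM. NDUFB4 alone, 1 of 76 nuclear members (1.32%), moved by more than 0.5 on the log2 scale, against 38.2% of all genes and 26.1% of those of at least 10 CPM. The 95% interval lay within 1.25-fold of no change for 69 of the 76 nuclear members at 0.03 nM, 66 at 0.06 nM, 64 at 0.1 nM and 55 at 10 nM. At 10 nM it lay within 1.5-fold for 72 of 76. The group mean was highest at 10 nM for 44 of the 76 and rose at every step of dose for 15; it fell at every step for NDUFB4 and ATP5PO.

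The sign of the small rises depends on the scaling of the libraries. With library totals in place of TMM factors the median of all genes at 10 nM moved to −0.22. Under library totals 40 nuclear members were called, 3 higher and 37 lower. Of all genes called at 10 nM, 28.8% were higher with library totals and 50.9% with TMM factors. Among the 26 nuclear members called higher with TMM factors, 19 changed sign. Relative to the median of all genes, the nuclear median at 10 nM stood 0.09 higher and the mitochondrial median 0.17 higher, with either scaling. With TMM factors the median of genes of at least 10 CPM stood 0.11 higher.

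Complex I, the NADH dehydrogenase, held the member with the largest change at 10 nM against vehicle. NDUFB4, an accessory subunit of its membrane arm (ENSG00000065518.8, chr3:120596309-120602500, GRCh38, plus strand), stood at 558, 447 and 469 CPM in vehicle, 475, 404 and 420.5 CPM at 0.03 nM, 409, 363 and 381 CPM at 0.06 nM, 379, 282 and 337 CPM at 0.1 nM and 272, 248 and 244 CPM at 10 nM. Within each library number the level was lower at each higher dose, and all libraries at 0.06, 0.1 and 10 nM lay below every vehicle library. Against vehicle NDUFB4 fell by 0.18 ± 0.0493 (SE, log2) at 0.03 nM (edgeR adjusted p = 0.0128), by 0.35 ± 0.0495 at 0.06 nM (adjusted p = 4.7e-06), by 0.57 ± 0.0496 at 0.1 nM (adjusted p = 1.94e-09) and by 0.94 ± 0.0499 at 10 nM (adjusted p = 1.03e-13). From 0.06 nM up it was called under all 24 alternatives tried, with 10 nM values from −1.15 to −0.91. The 0.03 nM call was lost without vehicle replicate 2, where the log2 change was −0.15, and without the library number as a block.

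Both small accessory subunits that share the NDUFC name rose at 10 nM. NDUFC1 (ENSG00000109390.13, chr4:139266880-139302551, minus strand) stood at 72.1, 78.6 and 79.4 CPM at 10 nM, against 59.6, 56.5 and 56.0 CPM in vehicle, a log2 change of 0.42 ± 0.0541 (SE, edgeR adjusted p = 4.45e-07). NDUFC2 stood at 20.4, 23.3 and 20.8 CPM at 10 nM, against 17.1, 16.2 and 15.4 CPM in vehicle, a log2 change of 0.41 ± 0.0589 (adjusted p = 2.28e-06). Neither pair of groups overlapped, and both rises were called under every alternative, library totals included. NDUFC2, at a mean of 18.1 CPM over the 15 libraries, overlaps NDUFC2-KCTD14 on the same strand, so its level is uncertain. NDUFC1 overlaps MGARP on the same strand.

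NDUFA5, an accessory subunit of the peripheral arm, was flat at the low doses, with log2 changes of 0.00, 0.02 and 0.06. At 10 nM it stood at 80.6, 104 and 91.6 CPM, against 68.4, 76.1 and 70.6 CPM in vehicle. That rise was 0.36 ± 0.0703 (SE, log2; edgeR adjusted p = 0.000107), with groups that did not overlap, and was 0.15, with no call (adjusted p = 0.0955), under library totals.

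NDUFA6, an accessory subunit of the LYR family, and NDUFB10, of the membrane arm, were already higher at 0.06 nM. NDUFA6 (ENSG00000184983.11, chr22:42085525-42090955, minus strand) stood at 60.8, 56.2 and 56.0 CPM in vehicle, 61.4, 62.6 and 61.0 CPM at 0.03 nM, 65.9, 63.0 and 65.5 CPM at 0.06 nM, 70.5, 61.8 and 69.6 CPM at 0.1 nM and 71.3, 70.5 and 73.6 CPM at 10 nM. All of its libraries from 0.03 nM up lay above every vehicle library. NDUFA6 overlaps AL021878.2 on the same strand. Its log2 changes were 0.17, 0.22 and 0.32 ± 0.0463 (SE) at 0.06, 0.1 and 10 nM, with edgeR adjusted p of 0.00586, 0.000396 and 2.67e-06, and the 0.03 nM change of 0.10 was not called. NDUFB10 stood at 164, 162 and 152 CPM at 0.06 nM and 171, 170.2 and 166 CPM at 10 nM, against 146, 144 and 124 CPM in vehicle. It rose by 0.21 at 0.06 nM and by 0.30 ± 0.0482 (SE) at 10 nM on the log2 scale (adjusted p = 0.00139 and 1.19e-05). Under library totals the 10 nM rise of NDUFB10 was 0.09 and was not called.

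**Figure D2:**
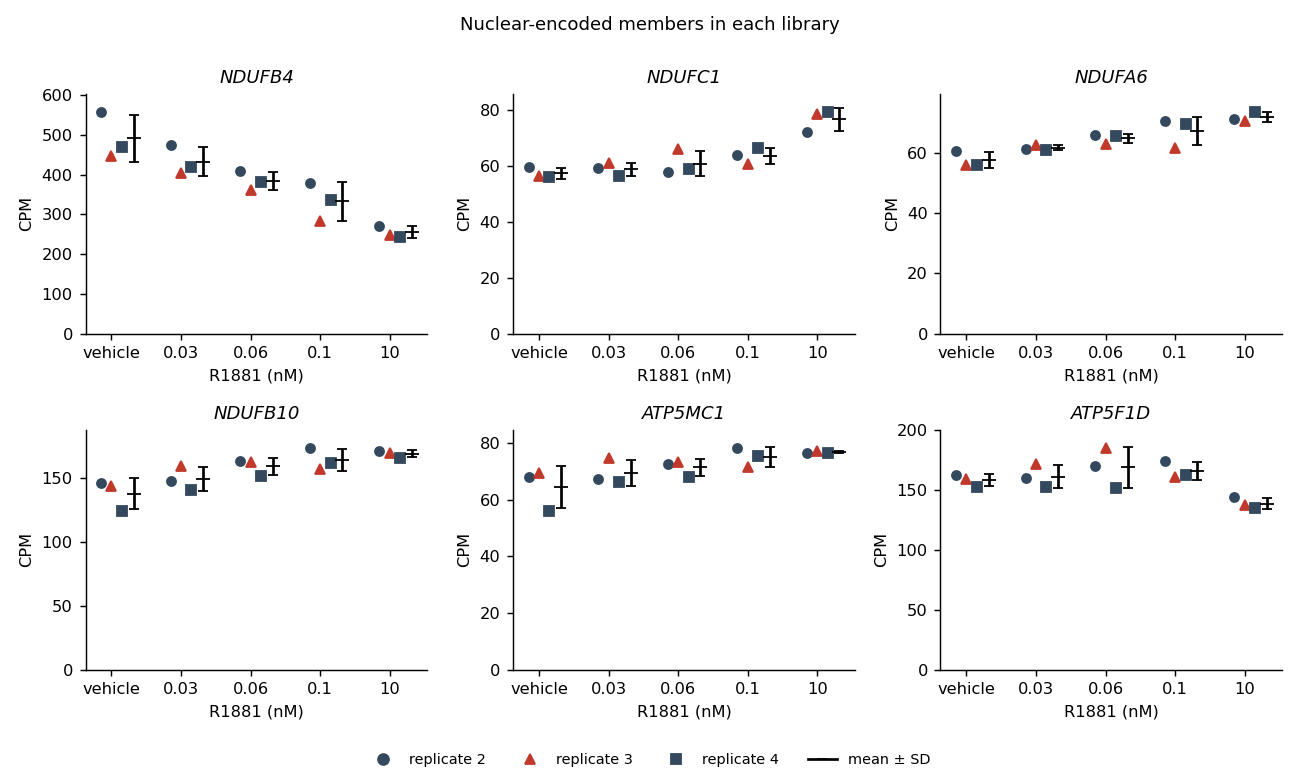
Level in CPM of 6 subunit genes in each of the 15 libraries, by R1881 dose and with a marker for each library number. NDUFB4 falls with each dose, NDUFC1 and NDUFA6 are highest at 10 nM, NDUFB10 and ATP5MC1 level off from 0.1 nM, and ATP5F1D is lower at 10 nM than in any other group.

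In all, complex I had 10 nuclear members higher and 3 lower of 37 at 10 nM, with a median log2 change of 0.06. Of all genes 32.1% were higher and 31% lower, and of genes of at least 10 CPM, whose median was 0.10, 47.4% were higher and 26.7% lower. The other called members moved less. NDUFV1, the flavoprotein that binds NADH, stood at 179, 171 and 171 CPM at 10 nM, against 196, 205 and 179 CPM in vehicle, and fell by 0.15 ± 0.0434 (SE, log2; edgeR adjusted p = 0.00388). NDUFS7, an iron-sulfur subunit, fell by 0.17 (adjusted p = 0.00799), and NDUFS8, another iron-sulfur subunit, rose by 0.18 (adjusted p = 0.00211), a rise that was −0.03 under library totals. NDUFB7 was the member with the largest rise at 0.03 nM, where it stood at 56.1, 62.0 and 83.9 CPM, against 55.7, 59.6 and 49.6 CPM in vehicle. The groups overlapped, with 0.03 nM replicate 4 above the rest, and the rise of 0.29 (adjusted p = 0.0379) was 0.08 without 0.03 nM replicate 4. Several complex I genes had few counts for so abundant a complex: NDUFA13 averaged 3.28 CPM, NDUFB8 1.81 CPM and NDUFV2 1.30 CPM in vehicle. Of the 15 nuclear members under 20 CPM, 13 overlap another gene on the same strand, against 19 of the 64 at 20 CPM or more, so the levels of these 13 are uncertain.

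Complex II, succinate dehydrogenase, is encoded by the nucleus alone, and its 4 subunits did not move together. SDHD, a membrane anchor, stood at 37.0, 34.4 and 35.6 CPM at 0.06 nM and 32.9, 38.4 and 33.8 CPM at 10 nM, against 31.4, 32.4 and 30.7 CPM in vehicle. It rose by 0.18 at 0.06 nM, 0.21 at 0.1 nM and 0.16 at 10 nM on the log2 scale (edgeR adjusted p = 0.0319, 0.00975 and 0.0385), and the 10 nM value was −0.05 under library totals. SDHC, the other anchor, stood at 87.4, 83.7 and 86.8 CPM at 0.06 nM, against 100.4, 95.1 and 88.9 CPM in vehicle. It fell by 0.14 ± 0.0509 at 0.06 nM (adjusted p = 0.0325) and by 0.15 ± 0.0508 at 0.1 nM (adjusted p = 0.0198), while at 10 nM it stood at 87.3, 102 and 91.8 CPM, a log2 change of −0.02 that was not called. The 0.06 nM call of SDHC was lost without vehicle replicate 2 or 3 and without 0.06 nM replicate 2 or 3. SDHA, the flavoprotein, stood at 3.35, 4.39 and 3.76 CPM at 10 nM, against 6.15, 5.13 and 4.20 CPM in vehicle. Its groups overlapped, and the fall of 0.42 ± 0.137 (adjusted p = 0.0107) was lost without vehicle replicate 2, at −0.24, and without 10 nM replicate 2, at −0.32. The table also lists its pseudogenes SDHAP1, SDHAP3 and SDHAP4 at means of 8.10, 10.4 and 11.1 CPM, so reads could be split and the level of SDHA is uncertain. SDHB, the iron-sulfur subunit, averaged 49.0 ± 2.03 CPM at 10 nM and 48.2 ± 2.07 CPM in vehicle (SD, n = 3 each) and was called at no dose.

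Complex III, the cytochrome bc1 complex, had 4 of 8 nuclear members higher at 10 nM, against 32.1% of all genes and 47.4% of those of at least 10 CPM, with a median of 0.10. UQCRFS1, the Rieske iron-sulfur protein, stood at 112, 115 and 101 CPM at 0.06 nM and 114, 112 and 105 CPM at 10 nM, against 102, 95.7 and 100.2 CPM in vehicle. At 10 nM all libraries lay above every vehicle library. Its log2 changes were 0.13, 0.19 and 0.15 at 0.06, 0.1 and 10 nM (edgeR adjusted p = 0.024, 0.00183 and 0.00605), and −0.06 under library totals at 10 nM. The small subunits UQCR10, UQCR11 and UQCRQ rose by 0.16, 0.24 and 0.19 at 10 nM (adjusted p = 0.0255, 0.0166 and 0.0211), with libraries that overlapped those of vehicle and, under library totals, values of −0.05, 0.03 and −0.02. The core proteins UQCRC1 and UQCRC2 were not called, with log2 changes of −0.01 and 0.04 at 10 nM.

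Complex IV, cytochrome c oxidase, had 3 of 10 tested nuclear members higher at 10 nM, against the same 32.1% and 47.4%, with a median of 0.12. COX6B1 stood at 146, 147 and 141 CPM at 10 nM, against 135, 133 and 113 CPM in vehicle, a rise of 0.19 ± 0.0556 (SE, log2; edgeR adjusted p = 0.00423) that was −0.02 under library totals. COX7A2 stood at 129, 152 and 133 CPM at 10 nM, against 124, 129 and 106 CPM in vehicle. Its rise of 0.20 ± 0.0709 (adjusted p = 0.0156) was lost without 10 nM replicate 3 and without vehicle replicate 4, and was −0.01 under library totals. COX7B rose by 0.13 (adjusted p = 0.0342), with −0.08 under library totals. COX6A1 and COX8A, the forms found in most tissues, were not called, and averaged 34.6 ± 2.03 and 43.3 ± 5.20 CPM at 10 nM and 32.9 ± 4.06 and 39.8 ± 7.22 CPM in vehicle (SD, n = 3 each).

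Partner forms known from testis were at trace levels or low. COX6B2 ran from 0 to 0.0938 CPM and COX8C from 0 to 0.0469 CPM, and these, with ATP5MGL at 0 to 0.177 CPM, did not pass the filter on low counts. COX7B2 was measurable. It stood at 3.59, 4.28 and 3.33 CPM at 10 nM, against 2.50, 2.83 and 2.28 CPM at 0.06 nM. That rise was 0.56 ± 0.126 (SE, log2; edgeR adjusted p = 0.00073), with groups that did not overlap. Against vehicle COX7B2 was called at neither dose. Its log2 changes from vehicle were −0.28 at 0.06 nM (adjusted p = 0.0877) and 0.27 at 10 nM (adjusted p = 0.0506), the latter without overlap. COX6A2 and COX7A1 were not analysed here.

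Complex V, the ATP synthase, had 8 of 17 tested nuclear members higher and 2 lower at 10 nM, with a median of 0.08. Of all genes 32.1% were higher and 31% lower, and of those of at least 10 CPM 47.4% and 26.7%. The catalytic subunits ATP5F1A and ATP5F1B, which carry most of the nuclear message of the complex, were not called at any dose. ATP5F1B averaged 1239 ± 30.4 CPM at 10 nM and 1195 ± 32.3 CPM in vehicle (SD, n = 3 each). ATP5MC1, one of the genes for the c-ring, stood at 72.7, 73.4 and 68.1 CPM at 0.06 nM, 78.3, 71.4 and 75.5 CPM at 0.1 nM and 76.6, 77.4 and 76.6 CPM at 10 nM, against 67.9, 69.5 and 56.2 CPM in vehicle. It rose by 0.15, 0.22 and 0.26 ± 0.0567 on the log2 scale at those doses (edgeR adjusted p = 0.0434, 0.00244 and 0.000425), and by 0.05, with no call, at 10 nM under library totals. Its 0.06 nM call held in 12 of 24 alternatives and was lost without the library number as a block (adjusted p = 0.131) and under library totals (adjusted p = 0.124). ATP5MC2 and ATP5MC3, which encode the same mature c-ring protein, were not called at 10 nM, with changes of −0.05 and 0.07. ATP5PB, of the peripheral stalk, rose by 0.12 ± 0.0397 (adjusted p = 0.00885) and was called lower, at −0.08, under library totals.

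ATP5F1D, the delta subunit of the central stalk, fell at 10 nM. It stood at 144, 137 and 135 CPM at 10 nM, against 170.4, 185 and 152 CPM at 0.06 nM and 163, 159 and 153 CPM in vehicle. All 10 nM libraries lay below every library of the other groups. The fall was 0.19 ± 0.0497 (SE, log2) against vehicle (edgeR adjusted p = 0.00194) and 0.28 ± 0.0498 against 0.06 nM (adjusted p = 4.61e-05), and the first was called under all 24 alternatives. ATP5PO, of the peripheral stalk, fell by 0.23 at 10 nM (adjusted p = 0.0393).

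Taking calls without each library in turn, 7 of the 26 nuclear members higher at 10 nM and 3 of the 6 lower were called every time: NDUFC1, NDUFC2, NDUFA5, NDUFA6, NDUFB10, NDUFS8 and ATP5MC1 higher, and NDUFB4, NDUFV1 and ATP5F1D lower. The count of nuclear members at 10 nM was 14 without vehicle replicate 4, 17 without 10 nM replicate 4 and 20 without 10 nM replicate 3. It was also 20 without the library number as a block.

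The comparison of 10 nM with 0.06 nM asks whether the high dose differs from a low one. Of the nuclear members 15 of 76 were called (19.7%), against 52.5% of all genes, 10 higher (25.9% of all genes) and 5 lower (26.6% of all genes). With library totals 37 were called, 2 higher and 35 lower. Of all genes called, 25.3% were then higher, against 49.4% with TMM factors. NDUFB4 fell by a further 0.59 ± 0.0498 (SE, log2; edgeR adjusted p = 7.63e-10), and NDUFC1 and NDUFA5 rose by 0.34 each (adjusted p = 1.6e-05 and 0.00027). No member of either genome was called in opposite directions by 0.06 nM against vehicle and by 10 nM against 0.06 nM in edgeR, against 9.61% of all genes. With an unadjusted p under 0.05 in both comparisons 2 nuclear members and no mitochondrial member met that rule, and with DESeq2 SDHC did.

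The 13 mitochondrial messages lay on the same side of vehicle at 10 nM. All 13 had log2 changes above 0 against vehicle, with a median of 0.15, which was −0.05 under library totals. The test called 4 (30.8%), all higher, against 32.1% of all genes and 47.4% of genes of at least 10 CPM. At the 3 low doses edgeR called none of them, none had an unadjusted p under 0.05 and DESeq2 called none; 12 of 13 lay below 0 at 0.06 nM. Against 0.06 nM, 8 of 13 (61.5%) were called higher at 10 nM, with a median of 0.23. The shares called higher were 25.9% of all genes and 38% of genes of at least 10 CPM. The test over all 5 groups called 4 of 13 (30.8%), against 68.6% of all genes. The group mean was highest at 10 nM for 12 of the 13 and lowest at 0.06 nM for 11. For the sum of the 13, log2 differences of 0.06 nM from vehicle were 0.06, −0.32 and 0.01 within library numbers 2, 3 and 4. In this sum only number 3 was lower at 0.06 nM than in vehicle. Those of 10 nM from 0.06 nM were 0.25, 0.35 and 0.17. Calls at 10 nM against vehicle numbered 0 without the library number as a block and 1, lower, under library totals; those against 0.06 nM numbered 3 and 0.

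MT-CO1, the catalytic subunit of complex IV, stood at 10182, 9421 and 9254 CPM at 10 nM, against 8414, 7231 and 7946 CPM at 0.06 nM and 8167, 8896 and 8325 CPM in vehicle. All 10 nM libraries lay above those of both other groups. It rose by 0.18 ± 0.0708 (SE, log2) against vehicle (edgeR adjusted p = 0.0281), which was −0.03 under library totals, and by 0.29 against 0.06 nM (adjusted p = 0.00149). MT-CYB, the only mitochondrial subunit of complex III, stood at 4569, 4259 and 4101 CPM at 10 nM, against 3623, 3914 and 3559 CPM in vehicle, again without overlap. It rose by 0.22 ± 0.0753 (adjusted p = 0.0146) and by 0.29 against 0.06 nM (adjusted p = 0.00244).

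The complex I subunits MT-ND4 and MT-ND5, which form proton-pumping parts of the membrane arm, were called with groups that overlapped. MT-ND4 stood at 7144, 7733 and 6224 CPM at 10 nM, against 5411, 7685 and 5273 CPM in vehicle (log2 0.22 ± 0.0854, SE; edgeR adjusted p = 0.0323). MT-ND5 stood at 2814, 3046 and 2619 CPM at 10 nM, against 2076, 2957 and 2338 CPM in vehicle (log2 0.21 ± 0.0751, adjusted p = 0.0165). In both genes the vehicle library numbered 3 lay close to its 10 nM counterpart and above the other 2 vehicle libraries. All 4 calls against vehicle were lost without vehicle replicate 2, without 10 nM replicate 2 and without 10 nM replicate 4. MT-CO2, MT-CO3, MT-ND1 and MT-ND4L were called higher against 0.06 nM only, with log2 changes of 0.24, 0.23, 0.19 and 0.26, and MT-CO1, MT-CYB and MT-ND5 alone kept that call without each library in turn. MT-ND2, MT-ND3, MT-ND6 and the ATP synthase subunits MT-ATP6 and MT-ATP8 were called in neither comparison. MT-ATP8 overlaps MT-ATP6, MT-ATP6 overlaps MT-CO3 and MT-ND4L overlaps MT-ND4, so their counts are not fully separate.

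Per length of message the mitochondrial genes spanned from 6493 CPM per kb for MT-CO3, the highest mean over the 15 libraries, through 5476 for MT-CO1, 5047 for MT-CO2, 4467 for MT-ND4 and 3305 for MT-CYB to 1365 for MT-ND5. MT-ND6, on the opposite strand from the rest, averaged 1603 CPM per kb. The table also listed 117 nuclear pseudogene copies of mitochondrial genes, which summed to 212 to 395 CPM per library, and reads of near-identical copies could be split between them and the originals.

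**Figure D3:**
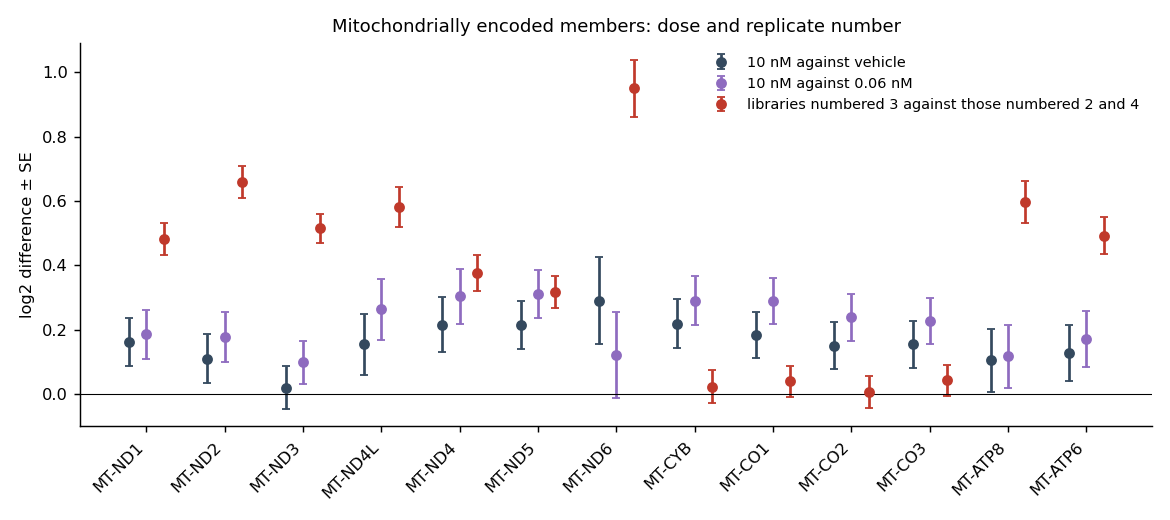
Log2 change with its standard error of the 13 mitochondrial genes for 10 nM against vehicle, 10 nM against 0.06 nM, and the libraries numbered 3 against those numbered 2 and 4. The 10 nM against vehicle changes lie between 0.02 and 0.29, while the library number splits them: MT-ND6 stands at 0.95 and MT-CO1, MT-CO2, MT-CO3 and MT-CYB near 0.

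Library number also separated some of the mitochondrial messages. In the same fit, 9 of 13 mitochondrial members (69.2%) were called higher in the 5 libraries numbered 3 than in those numbered 2 and 4, against 10 of 76 nuclear members (13.2%) and 20.7% of all genes. MT-ND6 stood at 732, 1352 and 706 CPM at 10 nM and 605, 1345 and 455 CPM in vehicle for numbers 2, 3 and 4, and differed by 0.95 ± 0.0878 (SE, log2; edgeR adjusted p = 8.34e-08) by number. MT-ND2 differed by 0.66, MT-ATP8 by 0.60 and MT-ND4L by 0.58, while MT-CO1, MT-CO2, MT-CO3 and MT-CYB, at 0.04, 0.01, 0.04 and 0.02, were not called. Mitochondrial ribosomal RNA made up 5.35 to 6.06% of counts in the libraries numbered 3 and 2.95 to 3.997% in the other 10, and mitochondrial transfer RNA 57.3 to 76.6 CPM and 22.3 to 27.7 CPM. Each dose group holds 1 library of each number. Without the 5 libraries numbered 3, mitochondrial calls at 10 nM were 11 of 13. Nuclear calls were 22 of 76 at 0.1 nM, where all 15 libraries gave 10, and 28 at 10 nM. The share of all genes called in that fit is not given here.

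Summed over members, the levels at 10 nM differed on average from those in vehicle by less than the SD in vehicle, in both genomes. That SD includes differences between library numbers. Taken within numbers 2, 3 and 4, the log2 difference of the mitochondrial sum was 0.31, 0.04 and 0.18, above 0 in all 3. That of the nuclear sum was −0.05, 0.03 and 0.08. The nuclear sum was 9115 ± 454 CPM in vehicle, 9124 ± 256 at 0.03 nM, 9119.5 ± 289 at 0.06 nM, 9095 ± 359 at 0.1 nM and 9238 ± 123 at 10 nM (SD, n = 3 each). The mitochondrial sum was 38871 ± 5654 CPM in vehicle, 38445 ± 8340.3 at 0.03 nM, 36493 ± 1185 at 0.06 nM, 37863 ± 4811 at 0.1 nM and 43716 ± 3421 at 10 nM. The log2 ratio of the nuclear to the mitochondrial sum, which needs no scaling between libraries, averaged −2.08 ± 0.20 in vehicle, −2.05 ± 0.30 at 0.03 nM, −2.001 ± 0.0487 at 0.06 nM, −2.05 ± 0.22 at 0.1 nM and −2.24 ± 0.10 at 10 nM (SD, n = 3 each). Within library numbers 2, 3 and 4, the ratio at 10 nM minus that in vehicle was −0.36, −0.00 and −0.10. These differences averaged −0.16 with an SD of 0.19. The ratio at 10 nM minus that at 0.06 nM was −0.23, −0.36 and −0.12, below 0 in all 3. As shares of all counts, the nuclear members made up 0.833 ± 0.00477% at 10 nM and 0.950 ± 0.0516% in vehicle, and the mitochondrial members 3.94 ± 0.263% at 10 nM and 4.05 ± 0.525% in vehicle.

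**Figure D4:**
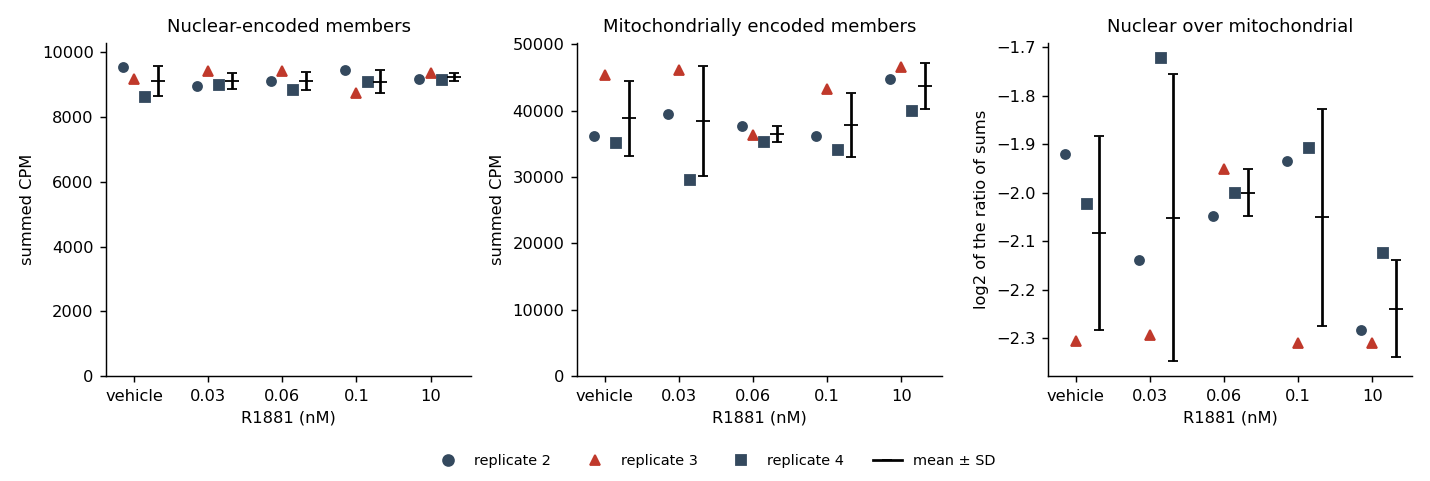
Summed CPM of the nuclear members, summed CPM of the mitochondrial members, and the log2 ratio of the sums in each library by R1881 dose; markers show the library number, and bars the mean ± SD of 3 libraries. The nuclear sum is level across doses, and the mitochondrial sum is highest on average at 10 nM, with wide spread in vehicle and at 0.03 nM.

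Genes that build or supply the complexes, from lists drawn up by function, were counted in the same fit. The test over all 5 groups called 21 of 26 genes of mitochondrial protein import (80.8%), 17 of 21 of mitochondrial RNA processing (81%), 15 of 20 of mitochondrial DNA upkeep and transcription (75%), 12 of 19 complex I assembly factors (63.2%), 15 of 25 complex IV assembly factors (60%), 9 of 17 assembly factors of complexes II, III and V (52.9%), 11 of 15 regulators of mitochondrial biogenesis (73.3%), 6 of 12 translation factors (50%) and 7 of 9 further subunits or carriers that the naming rule left out (77.8%). All genes stood at 68.6%, above 4 of these 9 lists, and the nuclear subunits at 26.3%; the difference between lists was not tested.

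Of the 26 genes of protein import 9 were called higher at 0.03 nM, 18 at 0.06 nM, 19 at 0.1 nM and 17 at 10 nM, where TOMM7 was the 1 gene lower, with medians of 0.14, 0.21, 0.22 and 0.25. Of all genes 9.93%, 20.7%, 25.1% and 32.1% were called higher at those doses. Among genes of at least 10 CPM the shares were 15.5%, 32.1%, 38.1% and 47.4%. Under library totals 14 were higher at 0.06 nM, and 9 were higher and 6 lower at 10 nM. TIMM23, the core of the inner membrane translocase, rose by 0.09 (not called), 0.27, 0.44 and 0.87 with dose, and its partner TIMM17A by 0.15, 0.31, 0.41 and 0.81 (edgeR adjusted p = 7.45e-14 and 5.65e-14 at 10 nM).

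Assembly factors moved in both directions. NDUFAF4, a complex I assembly factor, had log2 changes of −0.44, −0.76, −0.90 and −1.41 with dose, and NDUFAF6 reached −0.81 at 10 nM. Over the 19 complex I factors 8 were higher and 2 lower at 0.06 nM, and 7 and 2 at 10 nM, which turned to 2 and 8 under library totals. The shares of all genes were 20.7% higher and 19% lower at 0.06 nM, and 32.1% and 31% at 10 nM. Among genes of at least 10 CPM they were 32.1% and 21.1% at 0.06 nM, and 47.4% and 26.7% at 10 nM. CMC2, of complex IV assembly, had changes of 0.40, 0.73, 1.04 and 1.65, and COX18, which inserts a complex IV subunit into the membrane, reached 0.83 at 10 nM. Of 25 complex IV factors 12 were higher and 2 lower at 10 nM, and 6 and 7 under library totals. UQCC1 and UQCC2, assembly factors of complex III, stood at −0.43 and 0.38 at 10 nM, where 4 factors of complexes II, III and V were higher and 4 lower, and 2 and 11 under library totals. CYCS, cytochrome c, and COX7A2L, a supercomplex factor, rose by 0.42 and 0.33 at 10 nM.

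Of the 21 genes of mitochondrial RNA processing and stability 12 were higher and 4 lower at 10 nM, and 4 and 7 under library totals; FASTKD2 and FASTKD5, of the family that handles mitochondrial messages, rose by 0.48 and 0.46. For comparison, 32.1% of all genes were higher and 31% lower at 10 nM, and 47.4% and 26.7% of genes of at least 10 CPM. Of the 12 translation factors 4 were higher at 10 nM, and 2 higher and 7 lower under library totals. GFM1, an elongation factor, stood at 1.25 and MTRFR, a ribosome rescue factor, at 0.97. Of the 15 regulators of biogenesis 7 were higher and 3 lower, and 4 and 6 under library totals. Among them PPRC1, a coactivator related to PGC-1, peaked at 0.64 at 0.1 nM and stood at 0.48 at 10 nM, and HIF1A, the oxygen-sensing factor, was at 0.04 at 0.1 nM and rose by 0.62 at 10 nM.

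**Figure D5:**
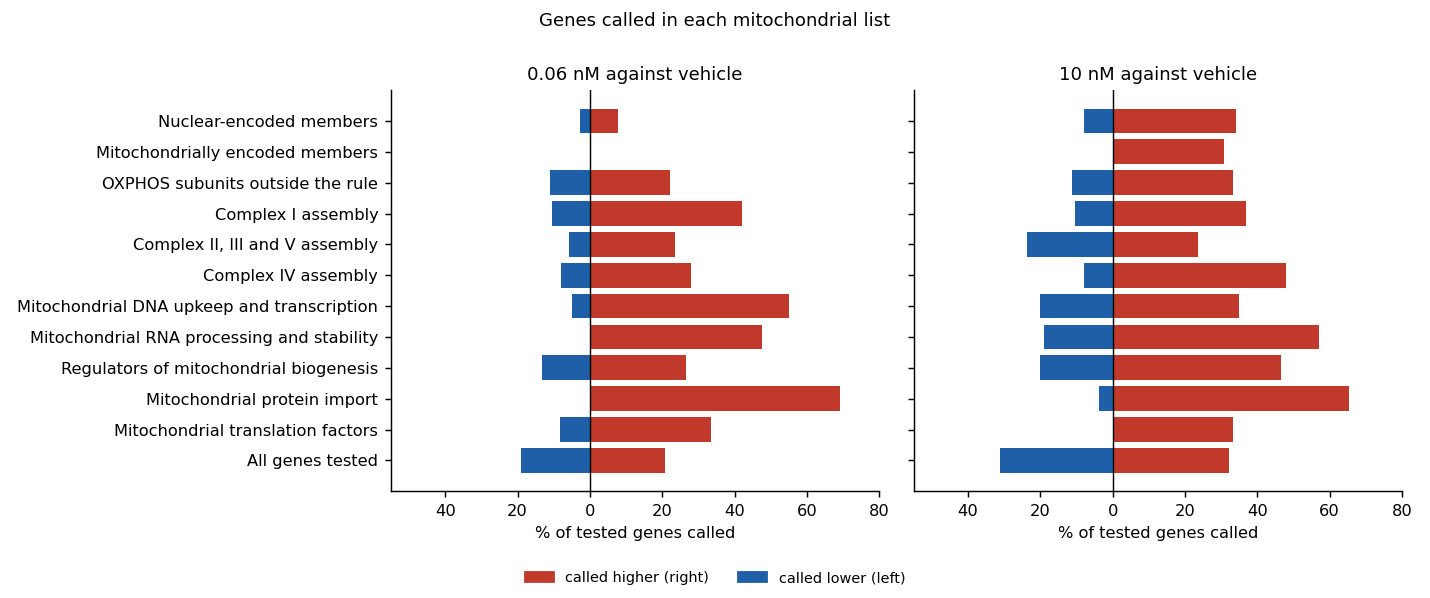
Percentage of tested genes called higher and lower at 0.06 nM and at 10 nM against vehicle, for the nuclear and the mitochondrial members, 9 lists of related mitochondrial genes and all genes. Protein import has 18 of 26 genes higher at 0.06 nM, against 20.7% of all genes. The nuclear members have 6 of 76 higher there and the mitochondrial members none.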

How the data were processed

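LNCaP RNA was taken with an Aurum kit and made into stranded mRNA libraries (KAPA), per the labels' protocols. Per the submitters' processing notes the build was GRCh38 and the authors' tools included STAR 2.7.8a, DESeq2 1.36.0 and Trimmomatic 0.39; the counter, annotation release and strand setting are not given in the sources used here. The deposited table holds raw counts per gene for 15 libraries. Another 15 per-sample columns (VCaP) matched no label and were not used. Symbols came from a table of gene names and positions from GENCODE 29, in which 36632 of 37843 IDs were found without their version.

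Counts were tested under R 4.3.3 with edgeR 4.0.16. The 18403 genes that passed filterByExpr, applied by group, were scaled by TMM and fitted by quasi-likelihood over all 15 libraries with group and library number, with two-sided tests, Benjamini-Hochberg adjustment over all genes and a threshold of 0.05. The scripts were tested on simulated data. Alternatives were RLE, library totals or nuclear-only scaling, DESeq2 1.42.0, other filters, no replicate block, fewer libraries and each library left out. Members, lists and tests were chosen with earlier results of these data known. Genes named are all mitochondrial members, the 3 members of each complex with the smallest p over the 5 groups, the largest rise and fall per comparison, tissue partner forms, and 2 genes of each list; the other members named were added after their values were seen. The labels do not say that replicates are separate cultures, so p-values measure only the spread between these libraries. The block follows the question asked. Same-numbered libraries deviated together by a correlation over 0.1 in 23 of 30 pairs (−0.0138 to 0.315), and libraries of other numbers in 1 of 60. All 10 pairs of number 2 and all 10 of number 3 passed 0.1, but only 3 of 10 of number 4. Libraries numbered 2 and those numbered 3 thus deviated together, while pairing was not shown for all 3 numbers. No pair of libraries held identical counts.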

Additional observations from a re-analysis of the deposited data

How the results depend on the processing

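Of the counts of calls, the following moved by over 1.5 times. Without the replicate block, nuclear members called were 0 at 0.03 nM, 4 at 0.06 nM, 20 at 10 nM, 9 at 10 nM against 0.06 nM and 12 over the 5 groups; mitochondrial members were 0 at 10 nM, 3 against 0.06 nM and 0 over the 5 groups; all genes were 1588 at 0.03 nM, where the block gave 3195, and 1159 opposite calls, where it gave 1769. With library totals, nuclear members were 1 at 0.03 nM, 37 at 10 nM against 0.06 nM and 39 over the 5 groups, and mitochondrial members 1 at 10 nM, 0 against 0.06 nM and 1 over the 5 groups. With RLE scaling 7 mitochondrial members were called at 10 nM. DESeq2 and the stricter filter each called 1 nuclear member at 0.03 nM; the stricter filter called 20 nuclear and 0 mitochondrial members at 10 nM. With no filter mitochondrial members were 4 at 0.06 nM, 4 at 0.1 nM, 12 at 10 nM, 13 against 0.06 nM, 13 over the 5 groups and 3 with opposite calls. With only the libraries compared they were 1 at 0.1 nM and 8 at 10 nM. Without the 5 libraries numbered 3 they were 1, 1, 1 and 11 at the 4 doses and 12 over the 5 groups, and nuclear members 22 at 0.1 nM. SDHC was the 1 nuclear member with opposite calls under RLE, nuclear-only scaling, DESeq2 and no filter. The causes were not tested.

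Leaving out each library in turn, nuclear calls ran from 0 to 4, 3 to 10, 9 to 17 and 14 to 34 at the 4 doses, 8 to 22 at 10 nM against 0.06 nM, 13 to 25 over the 5 groups and 0 to 1 for opposite calls. Mitochondrial calls ran from 0 to 0, 0 to 1, 0 to 1 and 0 to 7, 3 to 11, 0 to 8 and 0 to 0. All genes ran from 2139 to 3383, 5950 to 7530, 8164 to 9360, 10719 to 11873, 8543 to 9915, 11733 to 12969 and 1341 to 1864. The log2 ratio differences ran from −0.13 to 0.15, −0.03 to 0.16, −0.08 to 0.16, −0.27 to −0.07 and −0.30 to −0.20. Among the members named by rule, values called in at least 1 fit turned sign only under library totals: at 10 nM ATP5PB −0.085, COX6B1 −0.016, COX7A2 −0.0060, COX7B −0.081, MT-CO1 −0.026, MT-ND3 −0.19, SDHD −0.050, UQCR10 −0.045 and UQCRFS1 −0.056, and against 0.06 nM ATP5PB −0.068, UQCR10 −0.15 and UQCRFS1 −0.16. Of these, MT-ND3 at 10 nM, and UQCR10 and UQCRFS1 against 0.06 nM, were called under library totals and not with TMM factors.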

Other observations

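Of the 20 genes of mitochondrial DNA upkeep and transcription, edgeR called 5 higher at 0.03 nM, 11 higher and 1 lower at 0.06 nM, and 7 higher and 4 lower at 10 nM, each against vehicle, with a median log2 change of 0.10 at 10 nM. Against 0.06 nM, 4 were called higher and 9 lower at 10 nM, with 2 and 14 under library totals. Of all genes, 9.93% were called higher at 0.03 nM, 20.7% higher and 19% lower at 0.06 nM, and 32.1% and 31% at 10 nM. Against 0.06 nM, 25.9% of all genes were called higher and 26.6% lower at 10 nM. The difference between the list and all genes was not tested. MGME1, an exonuclease of mitochondrial DNA, had log2 changes of 0.26, 0.55, 0.63 and 0.10 against vehicle at 0.03, 0.06, 0.1 and 10 nM, and fell by 0.46 at 10 nM against 0.06 nM. MTERF4, a factor of mitochondrial ribosome assembly, instead had 0.13, 0.32, 0.34 and 0.96. The next 4 genes were chosen after their values were seen, because they were called in opposite directions. TFAM, which packages and transcribes mitochondrial DNA, had 0.12, 0.26, 0.30 and −0.03 and fell by 0.29 at 10 nM against 0.06 nM. POLRMT, the mitochondrial RNA polymerase, had 0.15 at 0.06 nM and fell by 0.24 at 10 nM against 0.06 nM. TWNK, the helicase, had 0.47 and fell by 0.23, and MTERF3 had 0.29 and fell by 0.19. The 13 mitochondrial messages were lowest on average at 0.06 nM in 11 cases and highest at 10 nM in 12, as given above. Their sum was lower at 0.06 nM than in vehicle only within library number 3, by a log2 difference of −0.32. Whether the changes of these genes and of the messages are related was not tested.

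The neighbours of NDUFB4 within 500 kb were listed after its fall was seen. RABL3 and GTF2E1 had log2 changes of −0.80 and −0.60 at 10 nM against vehicle, HGD, whose gene lies 25673 bases away, had 1.56, and LRRC58 had −0.04.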
